A study of Mus musculus with 68 samples.

Results

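The mitochondrial chaperone and protease genes described here were 10 in number, chosen by name: the chaperones Hspa9, Hspd1, Hspe1, Trap1 and Dnaja3, and the proteases Lonp1, Clpp, Yme1l1, Afg3l2 and Htra2. All 10 were listed, out of 13197 genes in the founder tables and 12803 genes in the F1 tables. Messenger RNA libraries were made from total RNA of primary mouse embryonic fibroblasts (MEFs) and sequenced, for the 8 inbred founder strains of the Collaborative Cross, 129S1Sv/ImJ (129), A/J (A), C57BL/6J (B6), CAST/EiJ (CAST), NOD/ShiLtJ (NOD), NZO/H1LtJ (NZO), PWK/PhJ (PWK) and WSB/EiJ (WSB). The 5 F1 crosses, each with a B6 mother, were named here by the father as x129, xCAST, xNOD, xNZO and xWSB, which gave 13 genotypes, 40 founder libraries and 28 F1 libraries. Cells received tunicamycin (TM) at 2 ug/ml or 0.1% DMSO as the control for 4 h, with 2 or 3 libraries per genotype and treatment. Each genotype was 1 pool of female embryos from 1 litter, so strain and pool cannot be told apart, and the p-values below measure the spread between treated wells.

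Most mitochondrial proteins are made in the cytosol, threaded through the inner membrane by the mitochondrial Hsp70 encoded by Hspa9, and folded inside by the Hsp60 and Hsp10 chamber encoded by Hspd1 and Hspe1. Trap1 encodes the mitochondrial Hsp90, and Dnaja3 a J-domain partner of the mitochondrial Hsp70. Damaged matrix proteins are degraded by the ATP-dependent proteases LONP1 and CLPP, the latter working with the unfoldase CLPX. YME1L1 and AFG3L2 are AAA proteases of the inner membrane facing opposite sides, and HTRA2 is a serine protease of the intermembrane space. TM blocks N-linked glycosylation, a step of the endoplasmic reticulum (ER) and not of mitochondria, and the comparison asks how genes of the other folding compartment stood after the same exposure.

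Recovered reads assigned to genes ran from 6442976 to 29528457 per library over the 66 libraries in which whole reads could be recovered. Read counts of the members in those libraries lay between 221 for Clpp and 22806 for Hspa9. Summed values of 10 fibroblast markers ran from 13100 to 54700 per library, against 4.56 to 73.6 for the listed myeloid markers, 1.00 to 19.9 for 5 endothelial and 3.39 to 132 for the listed epithelial markers. Among the fibroblast markers, Lum was near 0, with a highest value of 7.32. Pdgfra and Dcn were low in the founders, with medians of 13.8 and 22.0, below the 33.0 of the epithelial marker Krt19. Thy1 had a lowest value of 1.38 there. Fn1, Vim, Col1a1 and Col1a2 had the highest founder medians, 10000, 7150, 6300 and 4200. Fibroblast markers fell in part with TM, with 4 of 10 lowered in the founder average, Fn1, Thy1 and Pdgfrb the most, and 3 of 10 in the F1 average. The myeloid sum was 8.34 to 61.9 in TM and 10.1 to 73.6 in control founder libraries. There, 5 of 11 markers were lowered, Lyz2, C1qa and Laptm5 the most. Of all genes, 21.9% were lowered by the same rule in the founder average and 18.7% in the F1 average. With the length and GC correction described below, 3 fibroblast and 3 myeloid markers were lowered in the founders, and 4 fibroblast markers in the crosses. The part of these shifts in the results below was not tested. Before deposit the authors had dropped libraries that fell outside their treatment in a principal component analysis. Of the remaining ones, 3 libraries, A control replicate 1, NZO TM replicate 3 and xWSB control replicate 1, lay away from their group for several members and are named where they matter.

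Promoter sequences were taken from the RefSeq table for GRCm38.p6, which matched 7 of the 10 members and gave no entry for Hspa9, Afg3l2 and Htra2. In GRCm38 the genes for which positions are given lie at chr1:55077835-55088243 (Hspd1, - strand), chr1:55088132-55091307 (Hspe1, +), chr16:4039971-4077827 (Trap1, -), chr16:4639989-4707695 (Dnaja3, +), chr17:56614297-56626887 (Lonp1, -), chr17:56990305-56996188 (Clpp, +), chr2:23156369-23199260 (Yme1l1, +) and chr6:83051266-83055273 (Htra2, -). Each window held 250 bases before and 50 after a listed transcription start, and both strands were searched for 4 motifs. These were the C/EBP-ATF response element CARE, TGATGNAAN, present in 3.95% of 32851 promoter windows, the heat shock element HSE, GAANNTTCNNGAA, in 0.603%, the ER stress element ERSE, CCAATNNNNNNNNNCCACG, in 0.119%, and the cyclic AMP response element CRE, TGACGTCA, in 1.79%. No CARE or ERSE match was present in any window of a member. Hspd1 and Hspe1 lie head to head. The RefSeq table gave 2 Hspd1 starts, at 55087932, 216 bases from the Hspe1 start, and at 55088243, inside Hspe1. The only HSE matches were in the stretch between the first Hspd1 start and the Hspe1 start. There, 2 overlapping matches on opposite strands make up 18 bases. Those 18 bases lie 127 bases before the first Hspd1 start and 72 before the Hspe1 start. They lie after the second Hspd1 start, and in GENCODE vM21 they fall in the first, untranslated exon of an alternative Hspd1 transcript. The only CRE match was 40 bases before the Trap1 start, outside any exon. Both are shown with their flanks, the matched bases in capitals, together with the exon-free 250 bases before the Lonp1 start, shown as the member with high GC content whose transcript rose and whose window held none of the 4 motifs.
Hspd1 and Hspe1, chr1:55088053-55088082, + strand: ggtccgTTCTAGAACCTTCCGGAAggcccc
Trap1, chr16:4077839-4077868, - strand: gtcgcgcgccaTGACGTCActgagccgccc
Lonp1, chr17:56626904-56627153, - strand: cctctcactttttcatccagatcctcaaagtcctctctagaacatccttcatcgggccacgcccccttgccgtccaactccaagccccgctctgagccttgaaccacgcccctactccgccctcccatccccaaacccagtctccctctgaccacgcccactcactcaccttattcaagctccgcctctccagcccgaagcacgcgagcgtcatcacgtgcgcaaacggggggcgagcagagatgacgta

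In untreated cells, the level per kilobase of exon ordered the members with the chaperone chamber and Hsp70 on top. Values here are scaled reads, that is, the reads of a gene relative to the TMM-scaled size of its library, and per kilobase they are divided by the length of all exons of the gene joined. As the mean of the 8 strains' control groups, Hspd1 stood at 197 per kilobase, Hspa9 at 146 and Hspe1 at 85.6. Clpp (38.5), Trap1 (36.9) and Lonp1 (31.8) formed a middle group, Htra2 was at 18.1 per kilobase, and Yme1l1 (10.5), Dnaja3 (10.3) and Afg3l2 (9.0) were lowest. Neighbours in this order were not always separated: the strain means of Hspd1 (152 to 269) overlapped those of Hspa9 (118 to 184), and those of Hspa9 reached down into those of Hspe1 (66.6 to 122). Within the middle group and within the last 3 genes the strain means overlapped as well, whereas the strain means of Htra2 (15.6 to 22.3) overlapped no other member's. The order depends on the length used, which joins the exons of every annotated transcript (9874 bases for Afg3l2, 8009 for Yme1l1). Before division, Lonp1 (139) stood above Hspe1 (126), and Afg3l2 (88.8) and Yme1l1 (83.8) stood above Htra2 (53.2) and Clpp (47.0).

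On average over the strains, TM raised 5 of the 10 members by 1.19 to 1.54 fold and lowered 2, to 0.904 and 0.900 of their control level. Hspa9, Lonp1, Yme1l1, Dnaja3 and Hspd1 rose, Trap1 and Htra2 fell, and Hspe1, Clpp and Afg3l2 did not pass the test (limma on log2(value + 0.1), Benjamini-Hochberg adjusted p below 0.01 over all genes). Of all 13197 genes, 20.5% were raised and 21.9% lowered by the same rule. In the F1 crosses, 6 members rose, the same 5 and Hspe1, by 1.23 to 1.56 fold, and none was called lowered by limma or by edgeR on the recovered reads, although 2 members had an unadjusted p below 0.05 in that direction with limma and 1 with edgeR. There, 16.9% of 12803 genes were raised and 18.7% lowered. The median change of the 10 members was 0.19 (log2) in the founders against -0.04 over all genes, and 0.35 against -0.04 in the F1 crosses. The 5 chaperones had a median of 0.25 in the founders and 0.41 in the crosses, and the 5 proteases -0.12 and 0.03. With the length and GC correction described below, the middle chaperone (Hspd1) and the middle protease (Yme1l1) were both at 0.10 in the founders. In the crosses they were at 0.14 (Hspe1) and 0.10 (Yme1l1). The difference between chaperones and proteases was not tested.

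**Figure D1:**
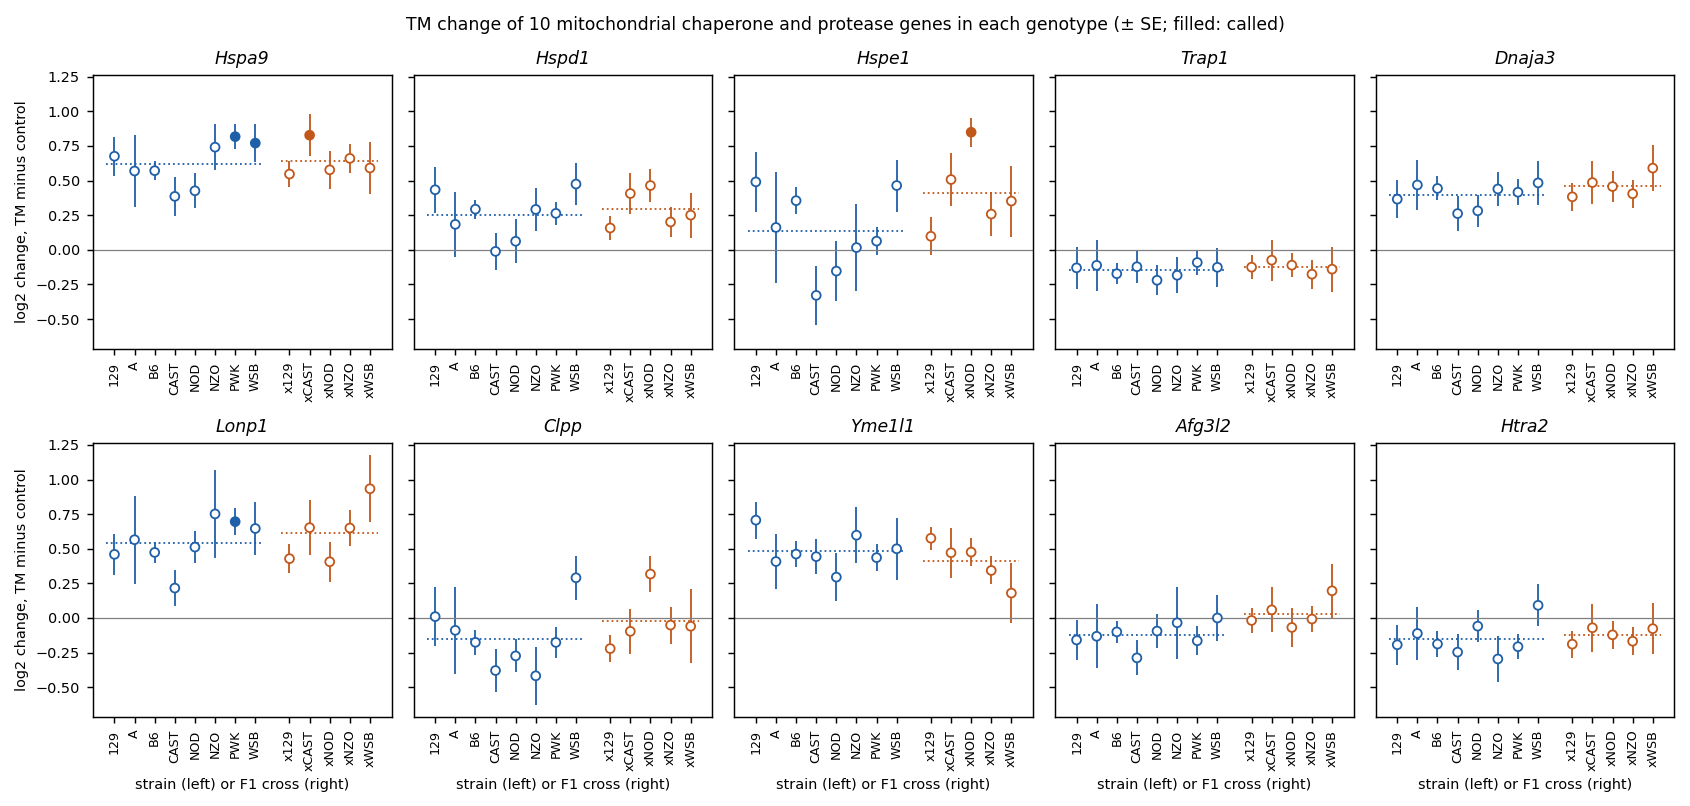
Log2 change, TM minus control, of each member (y axis) in the 8 founder strains (blue) and 5 F1 crosses (orange) on the x axis, from 1 limma fit per genotype, with bars of 1 SE, dotted lines at the average of each set, and filled points where adjusted p was below 0.01 with at least 1.5 fold. Hspa9, Lonp1, Yme1l1 and Dnaja3 lie above 0 in all 13 genotypes, and Trap1 lies below 0 in all 13.

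Hspa9, the mitochondrial Hsp70, had the largest average change among the members in both sets. Its mean value went from 628 in control to 954 in TM in the founders, a log2 change of 0.62 ± 0.06 (SE, adjusted p = 3.55e-10), and from 451 to 707 in the F1 crosses, 0.64 ± 0.06 (adjusted p = 2.22e-09). In PWK the 3 control libraries held 574, 628 and 648 and the 3 TM libraries 1095, 1006 and 1161. In WSB the controls held 508 and 598 and the TM libraries 967, 867 and 989. In xCAST the controls held 443 and 453 and the TM libraries 726, 791 and 877. In these 3 genotypes the groups were well apart, and Hspa9 was called at 1.76 fold in PWK (adjusted p = 2e-05 by limma), 1.71 fold in WSB (0.00513) and 1.78 fold in xCAST (0.00534). Of all genes, 6.36% were called raised in PWK, 2.85% in WSB and 2.52% in xCAST. The calls in WSB and xCAST were lost when any of 4 of the 5 libraries of that genotype was left out, with adjusted p of 0.0146 to 0.0976, and without a trend in the variance (0.0458 and 0.0291). After a correction for exon length and GC content the WSB change was 0.57, under 1.5 fold. In B6, Hspa9 passed the adjusted p (1.09e-05) but not the fold, at 1.49. Every TM library was above every control library in 7 of 8 strains and in all 5 crosses, where 7% of all genes did so in at least 7 strains and 4.53% in all 5 crosses. The exception was A, in which control replicate 1 held 909 against 542 and 536 in the other controls and 950, 861 and 1053 in TM. The A change was 0.57 with that library and 0.82 without it.

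Dnaja3, the J-domain partner of that Hsp70, had the narrowest range over strains of the 5 members that rose in the founders. Its change was 0.40 ± 0.03 (SE, adjusted p = 6.99e-11) in the founders, from a mean of 40.2 to 53.1, and 0.46 ± 0.05 (adjusted p = 3.31e-08) in the crosses, from 29.1 to 40.2. Single-strain changes lay between 0.26 in CAST and 0.48 in WSB. TM libraries were above all control libraries in 8 of 8 strains and in 5 of 5 crosses. Of all genes, 4.12% did so in all 8 strains and 4.53% in all 5 crosses. Dnaja3 was in no genotype called at 1.5 fold. Its exons overlap those of Coro7 and Vasn in the annotation, and the sources used here do not state whether reads were counted by strand, so some reads may belong to either gene.

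Hspd1 and Hspe1 encode the subunits of the folding chamber, and Hspd1 rose in both sets but Hspe1 in the crosses alone. The difference between the sets was not tested. Hspd1 rose by 0.25 ± 0.06 (SE, adjusted p = 7.17e-04) in the founders, from a mean of 520 to 609, and by 0.30 ± 0.05 (adjusted p = 1.89e-05) in the crosses, from 352 to 433. Its strain values ran from -0.01 in CAST to 0.47 in WSB, and TM libraries were above all controls in 5 of 8 strains (15% of genes did so in at least 5) and in 4 of 5 crosses (9.29% in at least 4). Hspe1 was at 0.13 ± 0.12 (SE, adjusted p = 0.343) in the founders, where strain values ran from -0.33 in CAST to 0.49 in 129. In the crosses Hspe1 rose by 0.41 ± 0.09 (adjusted p = 9.88e-04), and in xNOD its controls held 80.4, 82.7 and 70.7 and its TM libraries 144 and 137. It was called there at 1.80 fold (adjusted p = 0.00462, limma), where 3.69% of genes were called raised, and the call was lost when any of the 3 xNOD control libraries was left out (adjusted p of 0.0284 to 0.0307) or without a trend in the variance (0.0170). Hspe1 had the largest SE of the members in both sets: the A controls held 234, 99.1 and 98.6, and the NZO TM libraries 86.8, 75.0 and 156. Without A control replicate 1 the A change went from 0.16 to 0.58, and without NZO TM replicate 3 the NZO change went from 0.02 to -0.30. The exons of Hspd1 and Hspe1 overlap at their shared promoter, and the annotation names 5 Hspd1 and 6 Hspe1 pseudogenes that can share reads with them.

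Trap1, the mitochondrial Hsp90, fell slightly in the founders. Its change was -0.14 ± 0.04 (SE, adjusted p = 9.17e-04) in the founders, from a mean of 95.0 to 86.1, and the lowest and highest strain values were -0.22 in NOD and -0.09 in PWK. In the crosses it was -0.13 ± 0.04 and missed the threshold (adjusted p = 0.0164), with all 5 crosses below 0. In B6 the controls held 93.3 and 95.7 and the TM libraries 84.0 and 83.6. TM libraries lay below all controls in 6 of 8 strains, where 9.74% of all genes did so in at least 6, and in 3 of 5 crosses, against 14.7% of genes in at least 3. Exons of Trap1 overlap those of Dnase1 in the annotation.

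Lonp1, the matrix protease of the LON family, rose almost as much as Hspa9. The founder mean went from 139 to 202, a log2 change of 0.54 ± 0.09 (SE, adjusted p = 5.99e-06), and the F1 mean from 106 to 165, 0.61 ± 0.09 (adjusted p = 4.25e-06). In PWK the controls held 148, 138 and 128 and the TM libraries 218, 202 and 252, with no overlap, and Lonp1 was called at 1.62 fold (adjusted p = 1.8e-04, limma). With the contrast of the group-means fit the call was lost (adjusted p = 0.0312). TM libraries were above all controls in 7 of 8 strains (7% of genes in at least 7) and in 5 of 5 crosses (4.53% of genes). In A, control replicate 1 held 248 against 125 and 124 in the other controls, and lay among the TM libraries at 193, 215 and 298. The highest strain value, 0.75 in NZO, rested on TM replicate 3, at 260 against 139 and 127, and was 0.43 without it.

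Clpp, the proteolytic subunit paired with CLPX, did not pass the test in either set, at -0.15 ± 0.08 (SE, adjusted p = 0.107) and -0.02 ± 0.08 (adjusted p = 0.840). No single genotype was called either. In WSB the controls held 45.7 and 37.7 and the TM libraries 47.0, 53.7 and 51.7, all above, whereas in NOD the controls held 53.2 and 49.4 and the TM libraries 44.6, 43.8 and 39.0, all below. TM libraries were also below all controls in B6, CAST and x129, and above in xNOD. Such separation was common: of all genes, 24.9% lay above in WSB and 27.2% in xNOD, and 33.8% lay below in B6, 31.4% in CAST, 20.7% in NOD and 18.4% in x129. The interaction test did not separate the genotypes (adjusted p = 1 in the founders and 0.800 in the crosses).

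**Figure D2:**
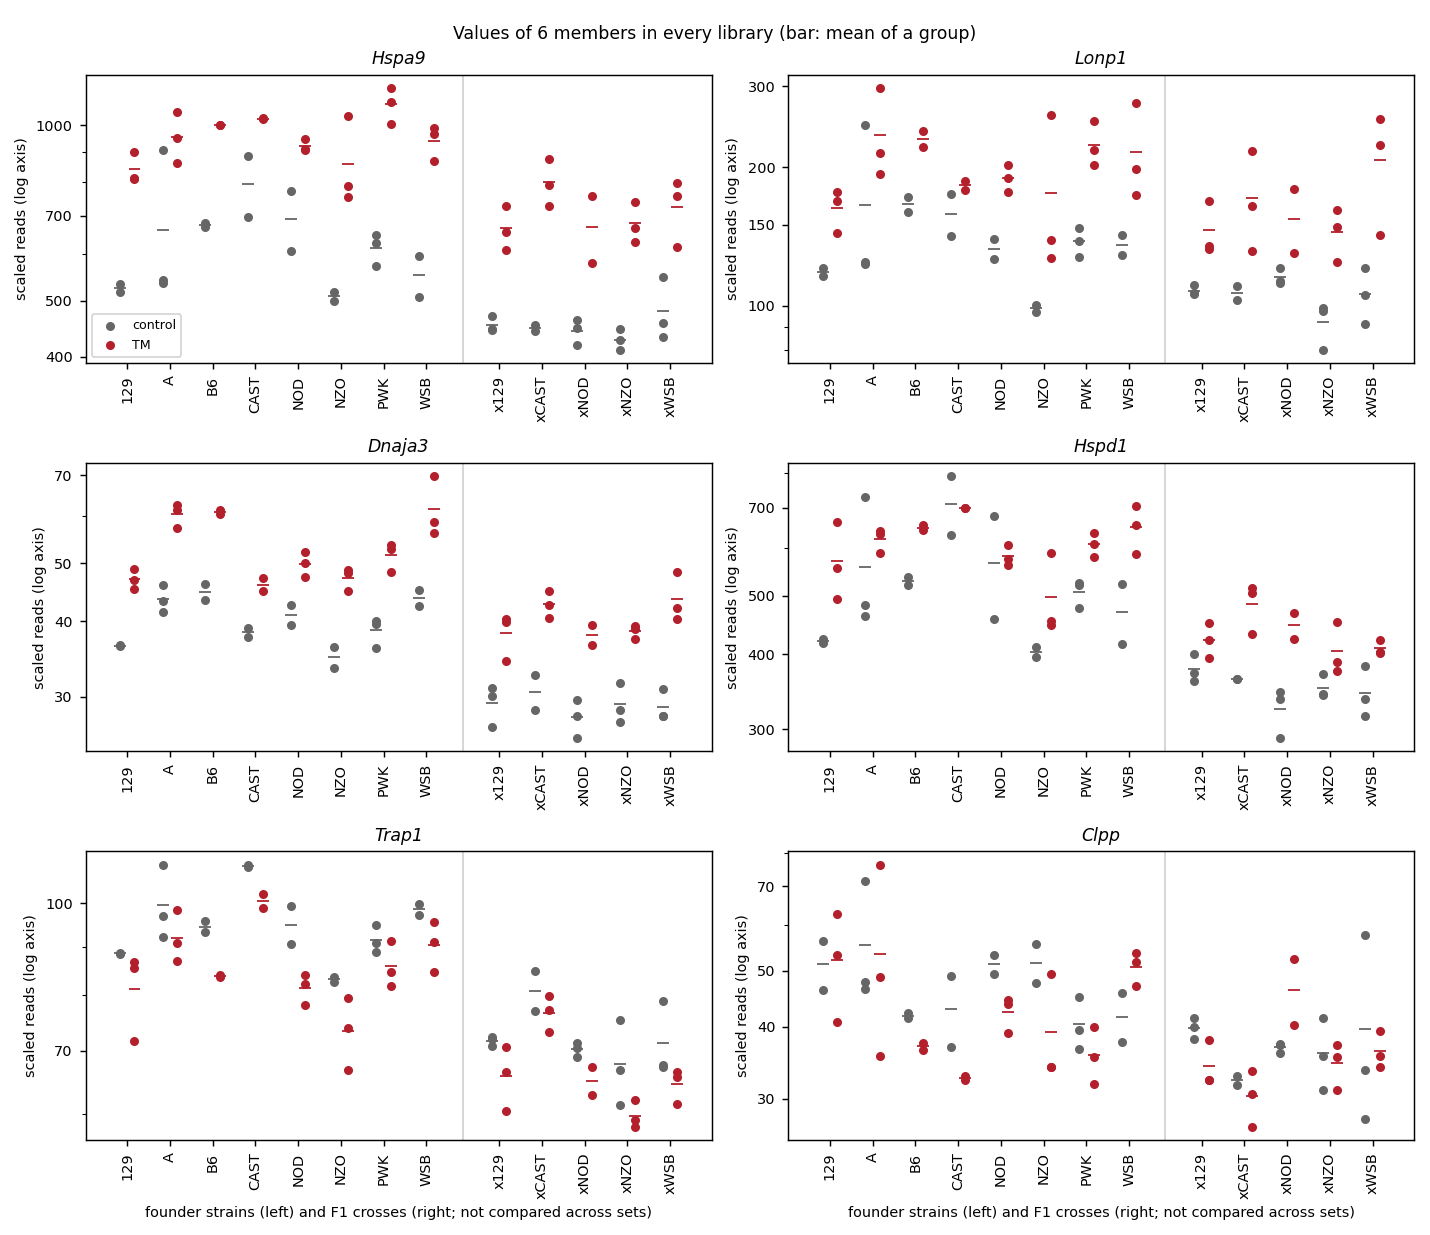
Values of 6 members in every library, in scaled reads on a log axis, by strain (left of the line) and cross (right, not compared across sets), with control in grey, TM in red and a bar at each group mean. Dnaja3 shows no overlap between control and TM in any of the 13 genotypes, Trap1 lies slightly lower in TM, and Clpp lies higher in TM in WSB and xNOD and lower in B6, CAST, NOD and x129.

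Of the inner-membrane proteases, Yme1l1 rose in both sets and Afg3l2 passed the test in neither, and the difference between the genes was not tested. Yme1l1 went from a mean of 83.8 to 116 in the founders, 0.48 ± 0.07 (SE, adjusted p = 6.01e-07), and from 56.7 to 75.6 in the crosses, 0.41 ± 0.07 (adjusted p = 2.19e-05), and its change was above 0 in all 13 genotypes. In 129 the controls held 71.4 and 70.3 and the TM libraries 112, 116 and 120, the largest strain value at 0.71, with an adjusted p of 0.0459 in that strain alone. TM libraries were above all controls in 6 of 8 strains (10.1% of genes in at least 6) and in 4 of 5 crosses (9.29% in at least 4). Afg3l2 was at -0.12 ± 0.06 (adjusted p = 0.109) and 0.03 ± 0.06 (adjusted p = 0.685). Htra2 fell by 0.15 on the log2 scale in the founders (SE 0.04, adjusted p = 0.00315), with TM libraries below all controls in 5 of 8 strains (14.9% of genes in at least 5). It stood at -0.13 ± 0.05 (adjusted p = 0.0625) in the crosses. The exons of Htra2 overlap those of Aup1 and Loxl3.

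The changes of all genes followed their base composition, least so in xWSB, and in some genotypes their length. Over 11135 genes with a mean value of at least 2, the 10% with the lowest exon GC content had a median change of 0.32 and the 10% with the highest -0.29 in the founder average, and 0.23 and -0.22 in the F1 average over 10890 genes. In xWSB the medians of the lowest and highest 10% by GC content were 0.06 and -0.04. GC content was taken from the longest transcript of each gene, and length from all its exons joined. Yme1l1, with 38.0% GC, was in the lowest 2.0% of genes by GC content, and Htra2, with 60.1%, stood at the 95.9th percentile. Exons of Hspe1 (1474 bases) and Clpp (1223 bases) were among the shortest 10% of genes. The median change of those genes was 0.22 in WSB and 0.31 in xNOD, the genotypes with the highest Clpp values, and -0.24 in CAST, -0.22 in NOD and -0.26 in NZO. After a correction for exon length and GC content in each library, chosen after these values were seen, 4 members were raised and 1 lowered in the founders, and 3 were raised and 1 lowered in the crosses. Over all genes with the correction, 18% were raised and 19.5% lowered in the founders, and 16.9% and 19.7% in the crosses. Such a correction also removes any TM change that is itself related to length or GC content, and which share it removed was not tested.

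With that correction, Lonp1 (56.5% GC) had the highest change of the members, 0.74 in the founders and 0.78 in the crosses, Hspa9 was at 0.47 and 0.50, and Dnaja3 was at 0.40 and 0.46, all with adjusted p below 0.01. Yme1l1 dropped to 0.10 in both sets and lost its call (adjusted p = 0.0235 and 0.0110), as did Hspd1, at 0.10 and 0.12 (0.0697 and 0.0345), and Hspe1 in the crosses, at 0.14 (0.113) on average and 0.21 (0.216) in xNOD. Htra2 changed sign, to 0.10 in the founders (adjusted p = 0.00836) and 0.06 in the crosses (0.285). Trap1 was at -0.12 (adjusted p = 3.24e-04) and -0.14 (3.89e-04). Afg3l2 was at -0.09 (0.429) and 0.12 (0.140).

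**Figure D3:**
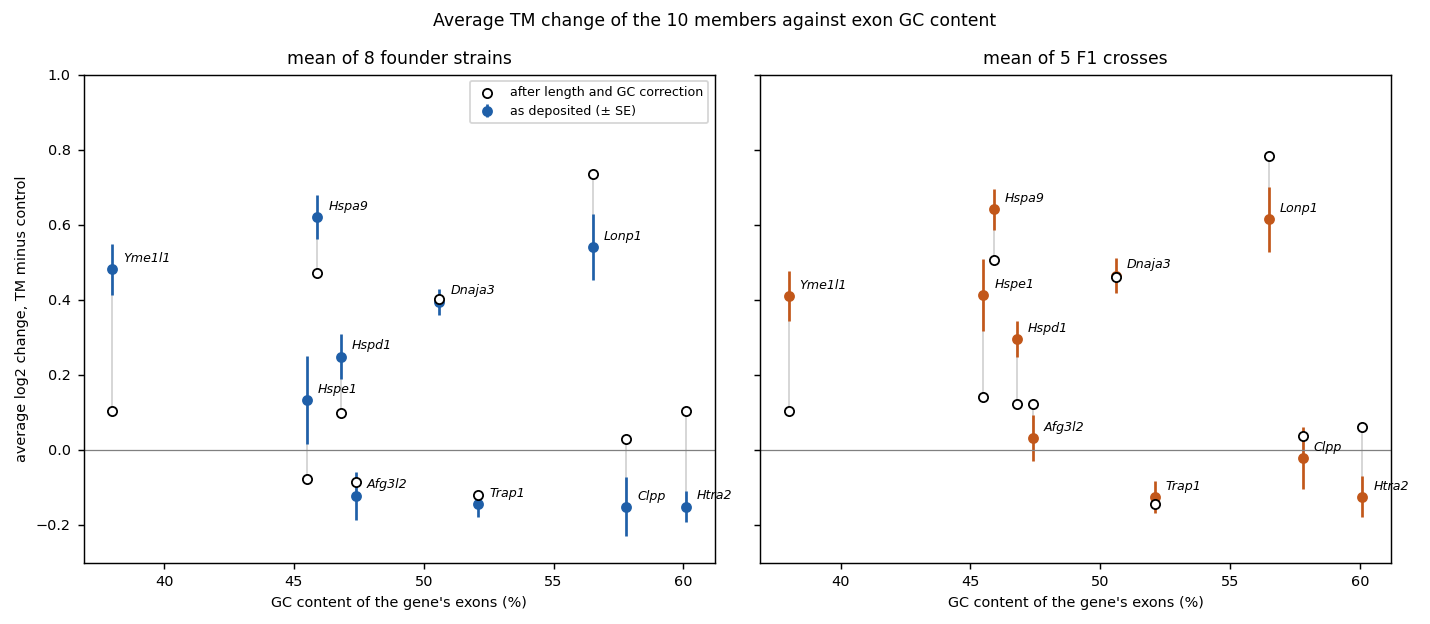
Average log2 change, TM minus control (y axis), against the GC content of the longest transcript in percent (x axis) for the 10 members. Founders are on the left and F1 crosses on the right, as deposited (filled, ± SE) and after the length and GC correction (open). Hspa9, Lonp1 and Dnaja3 stay near or above 0.4 in both, and Yme1l1, at the lowest GC content, moves down to 0.10.

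Set against other chaperones, Hspa9 moved between its cytosolic and ER relatives. Hspa5, the ER Hsp70, rose by 2.82 ± 0.07 (SE, adjusted p = 1.51e-24) in the founders and 2.90 ± 0.06 in the crosses. Hspa8, the constitutive cytosolic Hsp70, was at 0.00 ± 0.04 (adjusted p = 0.988) and 0.02 ± 0.05 (0.766). With the length and GC correction Hspa8 was at -0.14 (adjusted p = 0.00408 by limma) in the founders and -0.11 (0.0371) in the crosses. In a two-sided permutation test of treatment labels within genotypes (100000 resamples, adjusted over 6 pairs in 2 sets), the change of Hspa9 was below that of Hspa5 by a log2 difference of -2.20 (SD 0.10 over 8 strains) and -2.26 (SD 0.08 over 5 crosses). It exceeded that of Hspa8 by 0.62 in both sets (SD 0.15 and 0.11) and that of Hspd1 by 0.37 and 0.34 (SD 0.10 and 0.14), with the sign the same in all 13 genotypes. Trap1 changed less than Hsp90b1, the ER Hsp90, by -1.94 and -2.00 (SD 0.25 and 0.08), again in all genotypes. Lonp1 exceeded Clpp by 0.69 and 0.64 (SD 0.25 and 0.33) in all 13, least in xNOD at 0.09. For these 5 pairs the permutation p, adjusted, was 2.4e-05 in the founders, from the smallest p that the resamples can give, 1e-05, and 2.67e-05 to 6e-05 in the crosses.

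Hspd1 and Hspe1, which share the promoter printed above, were not separated by the permutation test. The difference Hspd1 minus Hspe1 was 0.12 (SD 0.15 over strains, adjusted permutation p = 0.131) in the founders and -0.12 (SD 0.16 over crosses, adjusted permutation p = 0.186) in the crosses. It ran from -0.06 in B6 to 0.32 in CAST and from -0.38 in xNOD to 0.06 in x129. After the length and GC correction it was 0.18 in the founders, past the threshold (adjusted permutation p = 0.00469), and -0.02 in the crosses (0.771).

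**Figure D4:**
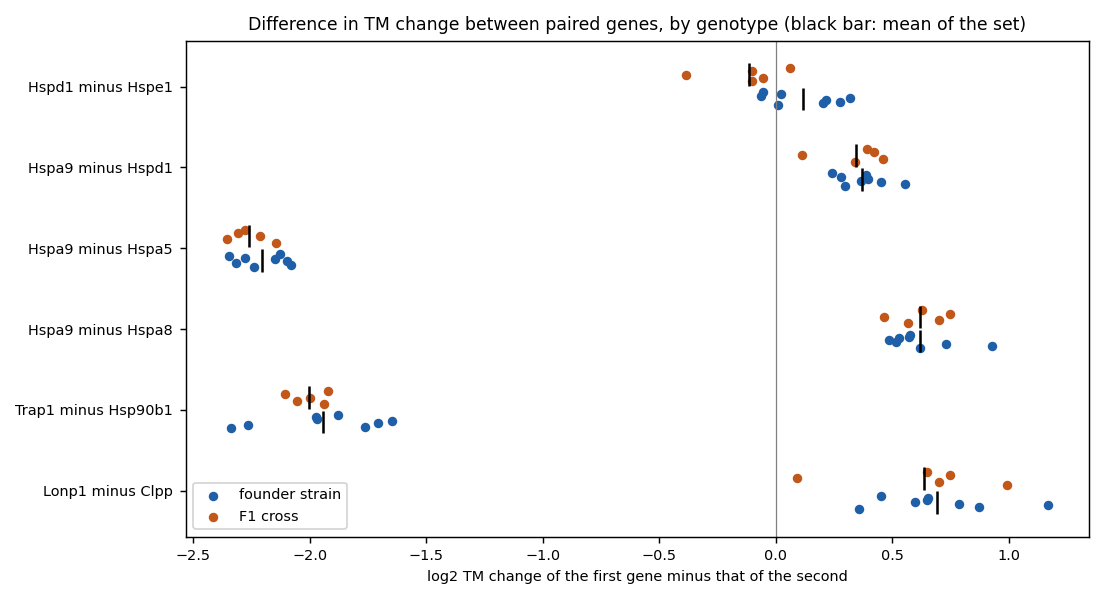
Difference in log2 TM change between the genes of each pair (x axis) in every founder strain (blue) and F1 cross (orange), with the mean of each set as a black bar. The other 5 pairs lie on one side of 0 in all 13 genotypes, and Hspd1 minus Hspe1 lies on both sides.

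No member had a change that differed between genotypes past the threshold. The limma interaction test gave an adjusted p of 1 for every member in the founders and of 0.79 to 0.981 in the crosses, and no member had an unadjusted p below 0.05 in either set by limma or by edgeR on recovered reads. Over all genes, 0.174% passed in the founders and 0.0547% in the crosses, so equal changes across genotypes are not shown by these results. The test compares total levels. The study also reports Hspa9 (Grp75) among the TM-raised genes of xCAST whose balance between B6 and CAST alleles shifted with TM. Within single genotypes, 3 of 80 tests of members in the founders and 2 of 50 in the crosses were called raised at 1.5 fold, where 2.4% and 2.54% of all gene tests were. None was called lowered, against 1.55% and 1.47% of all gene tests, and by limma none had an unadjusted p below 0.05 together with 1.5 fold.

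Levels without TM were compared between genotypes within each set. For Hspd1 the control groups ran from 403 in NZO to 710 in CAST, a ratio of 1.76, and it was the 1 member whose control level differed between strains (adjusted p = 0.00964, limma), where 37.2% of all genes did so. That call was lost with edgeR on recovered reads and in 29 of the 40 fits that left out 1 library. At an unadjusted p below 0.05, 6 members differed between strains by limma and 5 by edgeR. Under other settings the number called ran from 0 to 10, as given in the last section. Hspa9 ran from 508 in NZO to 792 in CAST, Lonp1 from 98.8 in NZO to 166 in B6 and Hspe1 from 98.2 in 129 to 180 in CAST. NZO had the lowest control mean for Hspa9, Hspd1, Trap1, Dnaja3 and Lonp1. Between crosses the ratio of the highest to the lowest control mean was 1.08 for Afg3l2 to 1.32 for Htra2, and no member passed by limma or edgeR (24.8% of all genes did by limma), with 1 member at an unadjusted p below 0.05 by either tool.

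The counts for other mitochondrial genes are to be read beside the 20.5% raised and 21.9% lowered of all genes in the founders and the 16.9% and 18.7% in the crosses. Of 18 further proteases and chaperone partners, 1 rose and 1 fell in the founders: Clpx, the unfoldase of CLPP, rose by 0.39 ± 0.05 (SE, adjusted p = 7.1e-08), and Phb, a prohibitin, fell by 0.28 on the log2 scale (SE 0.08, adjusted p = 0.00503). In the crosses 4 rose, Clpx among them at 0.43, and 1 fell. With the length and GC correction, 2 of these 18 were raised and 2 lowered in the founders, and 1 raised and 3 lowered in the crosses. Of 22 import genes, 4 rose and 2 fell in the founders, with Timm8a1, a small chaperone of the intermembrane space, at 0.62 (adjusted p = 3.67e-09), Timm21, of the inner-membrane translocase, at 0.35 (3.68e-05) and Timm10b at -0.46 (6.03e-05). In the crosses 5 rose and none fell past the threshold, with Timm10b at -0.33 (adjusted p = 0.0437). After the length and GC correction 3 import genes were raised and 5 lowered in the founders, and 3 and 4 in the crosses. Timm21 had lost its call in the founders (adjusted p = 0.959).

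Of 15 genes of mitochondrial content, 2 rose and 5 fell in the founders, and 2 rose and 2 fell in the crosses. Tfam, the transcription and packaging factor of mitochondrial DNA, rose by 0.74 ± 0.06 (SE, adjusted p = 5.79e-12) and by 0.78 in the crosses. Polg and Polrmt, the polymerases for mitochondrial DNA and RNA, fell by 0.44 and 0.36 on the log2 scale (adjusted p = 3.86e-05 and 5.38e-07). After the correction Polrmt was at -0.05 (adjusted p = 0.194 by limma), Polg at -0.21 (0.00141) and Tfam at 0.56 in the founders. With it, 1 content gene was raised and 6 lowered in the founders, and 1 and 4 in the crosses. Of all genes, 18% were raised and 19.5% lowered with it in the founders, and 16.9% and 19.7% in the crosses. Without the correction, the founder medians were -0.06 for content and -0.03 for import, close to the -0.04 of all genes, and 0.07 for the further proteases and partners.

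Of 10 regulators linked in the literature to the mitochondrial unfolded protein response, 3 rose in the founders, and 4 rose and 1 fell in the crosses. Ddit3, encoding CHOP, rose by 3.90 ± 0.09 (SE, adjusted p = 1.51e-24), Atf4 by 1.21 ± 0.06 (adjusted p = 5.88e-17) and Nfe2l2, encoding NRF2, by 0.55 ± 0.06 (adjusted p = 4.71e-09) in the founder average. After the length and GC correction 7 regulators were raised in the founders and 6 in the crosses, and none was lowered by limma. Atf5, the mammalian relative of the factor that drives this response in worms, was at 0.06 ± 0.08 (adjusted p = 0.527) in the founders and 0.16 ± 0.09 (adjusted p = 0.152) in the crosses. After the length and GC correction Atf5 was at 0.33 in both sets (adjusted p = 5.68e-06 and 8.11e-05). Of 10 ER and cytosolic counterparts, 6 rose and 1 fell in each set. Beside these and the regulators, 20.5% of all genes rose and 21.9% fell in the founders, and 16.9% and 18.7% in the crosses. Dnajb9, an ER J-domain protein, rose by 2.88 and Hsp90b1 by 1.80 in the founders. The gene that fell, Hspa1a, the inducible cytosolic Hsp70, was named after its values were seen. It was at -0.85 ± 0.08 (SE, adjusted p = 3.89e-10) in the founders and -0.69 ± 0.10 in the crosses. It can share reads with the near-identical Hspa1b. With the length and GC correction, 3 counterparts were raised and 2 lowered in the founders, and 4 and 1 in the crosses.

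Genes whose pattern was most like 3 of the members were ranked by Pearson r of log2(value + 0.1) over the 16 founder group means, which share strains and treatment. For Hspa9 these were Utp15 (0.981) and Matr3 (0.981), then Wdr43 (0.977). For Hspd1 they were Ncl (0.949), Timm9 (0.947) and Npm1 (0.945), with Hspe1 in place 27 at 0.890. For Lonp1 they were Taf15 (0.955), Lars (0.952) and Adm2 (0.946), with Dnaja3 in place 17 at 0.920 and Hspa9 in place 24 at 0.912. Over the 10 F1 group means the 3 most like genes of each member shared 0 genes with these, and Hspe1 was in place 412 for Hspd1, at 0.845.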

How the data were processed

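Per the labels and methods, total RNA of MEFs was made into single-end 100 bp mRNA libraries. The authors aligned reads with TopHat 1.4.1 to a genome built for each strain (GRCm38), counted them per gene and scaled them by TMM in edgeR, dropped libraries that fell outside their treatment in a principal component analysis and scaled again. The deposited signal is called FPKM, but in each of 68 libraries 100.0% of values are within 0.1 of a whole multiple of 1 step per library, so it is reads relative to the scaled library size, not divided by gene length. In PWK TM replicate 2 and WSB TM replicate 1 the step (0.100752 and 0.100521) could not be told from rounding, so reads were recovered in 66. A row that names no gene holds 15.5% to 24.1% of each library and was left out. Values sum to different levels in the founder and F1 sets, so levels are compared within a set.

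Genes reaching a value of 0.5 in 2 or more libraries were tested with limma 3.58.1 (trend) on log2(value + 0.1), which understates the change of low genes. Changes are TM minus control, averaged over genotypes in 1 fit per set, with adjusted p below 0.01 over all genes, or fitted within a genotype with 1.5 fold as well. F tests compared changes and control levels between genotypes. Pairs of genes were called at an adjusted permutation p below 0.05. Alternatives were a pseudocount of 1, no filter or a mean of at least 2, median-of-ratios scaling, no trend, array weights, a replicate block, other thresholds, edgeR quasi-likelihood on recovered reads, each library left out, and, added after seeing the data, a regression of each library's deviations on log exon length and GC content (GENCODE vM21, 98.7% of genes). Fits were also run on simulated reads of 1 fixed dispersion. These held no outlying libraries and no length or GC effect, so the response of the fits to those was not tested. The members and lists were chosen with earlier results of these data known. All members are named, with the genes of the pairs, in each other list the 3 largest founder changes past the threshold, Atf4, Atf5 and Ddit3, and the 3 genes most like Hspa9, Hspd1 and Lonp1. Spg7, Afg3l1, Tomm6, Tomm20 and Cox4i1 of the lists were not analysed here.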

Additional observations from a re-analysis of the deposited data

Results flagged for a closer look

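Clpp was singled out because its TM libraries lay above all controls in some genotypes and below in others, although it was called in no genotype and in neither average. In the founders they lay above in WSB, at 0.29, where 24.9% of all genes did so, and below in B6, CAST and NOD, where 33.8%, 31.4% and 20.7% of all genes did so, and the lowest change was -0.42 in NZO. In the F1 crosses they lay above in xNOD, at 0.32 (27.2% of all genes), and below in x129, at -0.22 (18.4%). The test of the difference between genotypes gave an adjusted p of 1 in the founders and 0.8 in the crosses (limma, interaction). The median change of the shortest 10% of genes was 0.22 in WSB, 0.31 in xNOD and -0.14 in x129. After the length and GC correction the Clpp change was 0.18 in WSB, 0.01 in B6 and NOD, -0.04 in CAST, -0.05 in NZO, 0.06 in xNOD and 0.04 in x129. Groups of 2 or 3 libraries were too small to test for single outlying libraries.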

How the results depend on the processing

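Of 380 values recomputed under other settings 319 were kept, and of 1672 with 1 library left out 1611 were. Kept meant the same direction and side of the threshold, or for a count at most 1.5 fold from the main count. For calls within 1 genotype, the 1672 include fits that left out a library of another genotype, which could not change the call. The cause was not tested for those that changed.

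Within single genotypes, raised member calls numbered 5 (founders) and 4 (crosses) at an adjusted p below 0.05, 11 and 4 with no fold threshold, and 5 and 4 after the length and GC correction. In the crosses they were 0 without trend and 6 from contrasts of the group-means fit. On average, array weights gave 4 lowered members in the founders and 2 in the crosses. The length and GC correction gave 1 lowered member in the founders, 3 raised and 1 lowered in the crosses, and with a replicate block 3 raised and 0 lowered in the founders and 3 raised and 1 lowered in the crosses. The number of members with a control level that differed between strains was 0 with median-of-ratios scaling, without trend and with edgeR, 10 with array weights and 5 after the correction, and between crosses it was 1 with array weights. After the correction, with and without the block respectively, the sign turned for Clpp in the founders (0.0351, 0.03) and crosses (0.0420, 0.0370) and for Htra2 in the founders (0.0893, 0.1043) and crosses (0.0652, 0.0620), and without the block for Hspe1 in the founders (-0.0784). The Hspd1 and Hspe1 difference became 0.1759 in the founders.

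Same-numbered control and TM libraries had correlations of their deviations from -0.637 to 0.489, above 0.1 in 11 of 29 pairs, so the numbers were not taken to pair the samples. In xWSB all 3 pairs were above 0.1 (0.327, 0.272 and 0.165). With the replicate number as a block, 4 members were raised and 0 lowered in the founders and 6 raised in the crosses, where Hspd1, Trap1 and Htra2 had adjusted p of 0.0212, 0.0445 and 0.0703 in the founders, and 1563 genes were raised and 1419 lowered against 2701 and 2887.

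With 1 library left out, raised calls within genotypes ran from 2 to 5 in the founders and 1 to 4 in the crosses, lowered ones from 0 to 1 in the founders, lowered averages from 0 to 1 in the crosses, and strain-dependent control levels from 0 to 3. In the crosses, Afg3l2 ran from -0.0123 (without xNOD TM replicate 2) to 0.0767, Clpp from -0.0666 to 0.0388 (without xWSB control replicate 1), and Hspd1 minus Hspe1 from -0.1798, below the permutation threshold of 0.05 without xWSB control replicate 1 (adjusted permutation p = 0.0213), to -0.0752. With 2 or 3 libraries per group and at least 221 reads behind each member's value, changes in single genotypes rest on few wells.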
